A study of Mus musculus with 2 samples.

Results

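The 51 genes described here encode the machinery of DNA replication and cell division. They were taken as a fixed list of symbols, 51 of the 22337 symbols in a single-cell RNA-Seq table of grafted mouse hearts, and all 51 were found in it. By role, 14 act in DNA replication and 5 supply nucleotides for it (19 S-phase genes), 11 are kinases, cyclins and checkpoint proteins of G2 and mitosis, 10 act on chromosomes and centromeres and 7 on the spindle (28 G2/M genes). The last 4, *Stmn1*, *Tubb5*, *H2afz* and *Hmgb2*, rise in dividing cells but are also made by resting ones. The cells came from 6 Bm12 hearts at postoperative day 14 (POD14), each placed heterotopically into a B6 recipient. Bm12 mice carry an altered class II MHC molecule, so every graft was mismatched with its recipient at that locus. Hearts 1, 2 and 3 had an intact *Il33* gene (IL-33+) and hearts 4, 5 and 6 came from Bm12 donors deficient in IL-33 (IL-33-). Immune cells were separated from the digested hearts on a density gradient, so that the fibroblasts described below are those that came along. The recipients were able to make IL-33, so that the groups differ in the graft and not in the cells that entered it.

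A cell that enters the cycle first turns on genes for replication, which are driven by E2F transcription factors. These genes include the MCM helicase, which opens DNA, and the sliding clamp PCNA, which holds the polymerase on it. Later in the cycle the genes for mitosis come on, many through paired CCAAT boxes and a promoter element named CHR. Dividing T and NK cells are well known in rejecting grafts, where contact with antigen and cytokines drives expansion, whereas most naive lymphocytes and mature myeloid cells are at rest.

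The promoters show how far the members share these elements. The bases just upstream of the start are given for 7 members on which the results below turn, 3 of them G2/M genes largely restricted to dividing cells (*Top2a*, *Mki67* and *Cdk1*), 2 S-phase genes found in almost every type (*Mcm6* and *Pcna*), and 2 genes whose level was highest in dendritic cells (*Cenpa* and *H2afz*). Sequences are from RefSeq on build GRCm38.p6, read 5′ to 3′ on the strand of the gene. Capitals mark the CCAAT box (CCAAT, or ATTGG on the other strand), the CHR (TTTGAA or TTCGAA, or TTCAAA on the other strand) and E2F sites (TTTCGCGC, TTTGGCGC, TTTCCCGC or TTTGCCGC, or their complements).
Top2a (chr11:99024190-99024439, minus strand): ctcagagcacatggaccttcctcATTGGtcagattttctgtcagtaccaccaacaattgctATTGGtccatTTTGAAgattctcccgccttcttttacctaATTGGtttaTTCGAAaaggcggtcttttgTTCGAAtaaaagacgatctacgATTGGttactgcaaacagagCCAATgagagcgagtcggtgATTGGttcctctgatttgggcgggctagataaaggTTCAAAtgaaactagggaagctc
Mki67 (chr7:135716380-135716629, minus strand): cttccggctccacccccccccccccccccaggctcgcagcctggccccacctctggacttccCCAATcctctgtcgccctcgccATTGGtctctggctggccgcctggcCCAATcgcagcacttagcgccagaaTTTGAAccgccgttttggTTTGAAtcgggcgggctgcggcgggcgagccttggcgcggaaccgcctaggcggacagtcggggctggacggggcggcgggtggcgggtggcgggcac
Cdk1 (chr10:69352913-69353162, minus strand): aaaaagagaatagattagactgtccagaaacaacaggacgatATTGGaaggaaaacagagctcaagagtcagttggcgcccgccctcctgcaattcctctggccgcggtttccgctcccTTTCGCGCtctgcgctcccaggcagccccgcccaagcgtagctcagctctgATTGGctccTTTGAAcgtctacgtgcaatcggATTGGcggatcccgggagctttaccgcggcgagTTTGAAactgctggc
Mcm6 (chr1:128359706-128359955, minus strand): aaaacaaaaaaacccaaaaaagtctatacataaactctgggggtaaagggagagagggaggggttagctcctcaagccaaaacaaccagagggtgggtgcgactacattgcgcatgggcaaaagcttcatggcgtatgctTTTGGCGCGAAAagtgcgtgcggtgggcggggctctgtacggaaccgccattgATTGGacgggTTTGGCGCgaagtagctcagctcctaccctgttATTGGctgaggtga
Pcna (chr2:132253181-132253430, minus strand): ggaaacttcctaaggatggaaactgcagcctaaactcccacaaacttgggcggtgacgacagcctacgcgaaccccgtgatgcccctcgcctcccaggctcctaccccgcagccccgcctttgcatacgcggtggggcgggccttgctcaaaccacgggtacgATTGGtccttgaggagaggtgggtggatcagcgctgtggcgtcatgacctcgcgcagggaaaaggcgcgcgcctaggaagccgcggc
Cenpa (chr5:30666636-30666885, plus strand): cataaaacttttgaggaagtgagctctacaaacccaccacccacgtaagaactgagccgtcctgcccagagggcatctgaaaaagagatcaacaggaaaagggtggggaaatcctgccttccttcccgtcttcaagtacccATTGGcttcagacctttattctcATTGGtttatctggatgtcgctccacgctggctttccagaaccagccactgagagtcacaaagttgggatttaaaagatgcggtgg
H2afz (chr3:137864237-137864486, plus strand): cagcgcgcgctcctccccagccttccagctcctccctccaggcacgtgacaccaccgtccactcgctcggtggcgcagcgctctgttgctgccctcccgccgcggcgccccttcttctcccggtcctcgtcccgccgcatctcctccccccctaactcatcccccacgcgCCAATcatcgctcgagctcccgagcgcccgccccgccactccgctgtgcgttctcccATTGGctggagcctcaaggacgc
An entry was found for 43 of the 51 members, and none for *Ccne2*, *Gins2*, *Mcm4*, *Ccna2*, *Aurkb*, *Smc4*, *Tpx2* and *Stmn1*. A CCAAT box lay within the 250 bases before the start in 20 of 24 G2/M genes (83.3%) and in 10 of 16 S-phase genes (62.5%), against 34.5% of the promoters of 27025 genes. Both a CHR and a CCAAT box were present in 9 of the 24 G2/M genes (37.5%) and 3 of the 16 S-phase genes (18.8%), against 6.21% of all genes. An E2F site of the forms listed was found in 4 of the 16 S-phase genes (25%) and 1 of the 24 G2/M genes (4.17%), against 1.91% of all genes. *Top2a* carried both elements several times, and so did *Mki67* and *Cdk1*, whereas the windows of *Cenpa* and *H2afz* held a pair of CCAAT boxes and no CHR. The window of *Mcm6* held 3 E2F sites, of which a pair on opposite strands overlap, and that of *Pcna* a single CCAAT box. A match of letters is a description of the window and does not show that a factor binds there.

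All 6 hearts were run as 1 pooled library of 4441 cells with 4441 distinct barcodes, in which hashtags tell the hearts apart. Hearts held 230 to 1666 cells and 908136 to 7012936 UMIs (unique molecular identifiers, 1 for each captured transcript), and a cell held a median of 3699 UMIs. The 14 annotated cell types are those of the authors. Most marker lists were highest in a type of that label, with the following limits on names used here. The 5 T cell markers summed to 544 CPM (the UMIs of a gene scaled so that every cell has the same total) in cells annotated NKT, against 2930 CPM in effector memory and effector (Tem/eff) cells. The 5 NK cell markers summed to 5520 CPM in the cells annotated NKT, a higher sum than that of the T cell markers. *Gzma* was the largest part of it, at 2373 to 5699 CPM per heart. *Eomes* was at 458 to 954 CPM, *Klre1* at 231 to 378 CPM, *Klrb1c* at 87.4 to 191 CPM and *Ncr1* at 18.4 to 48.9 CPM. In Tem/eff cells the naive T cell markers summed to 1146 CPM, against 1814 CPM in cells annotated naive T. The Treg markers summed to 1663 CPM in Tem/eff cells, second to Tregs (3218 CPM). In the cells annotated unconventional T cells the macrophage markers summed to 1868 to 4546 CPM per heart and the T cell markers to 318 to 1439 CPM, with the macrophage markers higher in each heart. In the cells annotated Mo-DCs the 4 neutrophil markers summed to a mean of 19804 CPM, with heart 4 far above the others. The sums were 1451, 7231, 69129 and 1407 CPM in hearts 1, 3, 4 and 6, those with at least 10 such cells. The macrophage markers summed to a mean of 4728 CPM in the same type. *Il33* transcripts were detected in fibroblasts of both groups, at 24.3, 0 and 50.7 CPM in hearts 1, 2 and 3 and 32.6, 73.8 and 16.1 CPM in hearts 4, 5 and 6. The reads are 3′ tags and the missing part of the gene is not given in the sources used here, so this level is no check of the labels. Because the types were found by clustering the same cells, the levels by type below are a description and carry no test.

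The division genes were concentrated in Tem/eff cells and, next, in NKT cells. Tem/eff cells were the highest of the 14 types for 41 of the 51 members, and Tem/eff and NKT cells were the top pair for 25. Among all 12914 genes with at least 24 UMIs, the fewest of any member, Tem/eff cells were highest for 7.75%, and the same pair led for 1.64%. Tem/eff cells made up 7.36% of cells and held 45.7% of the UMIs of *Mki67*, which encodes the Ki-67 protein used to stain cycling cells, and NKT cells made up 7.81% and held 26.5%. Of the UMIs of all genes, Tem/eff cells held 10.1% and NKT cells 10.8%. The heat map of mean levels shows these as the leftmost columns.

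**Figure D1:**
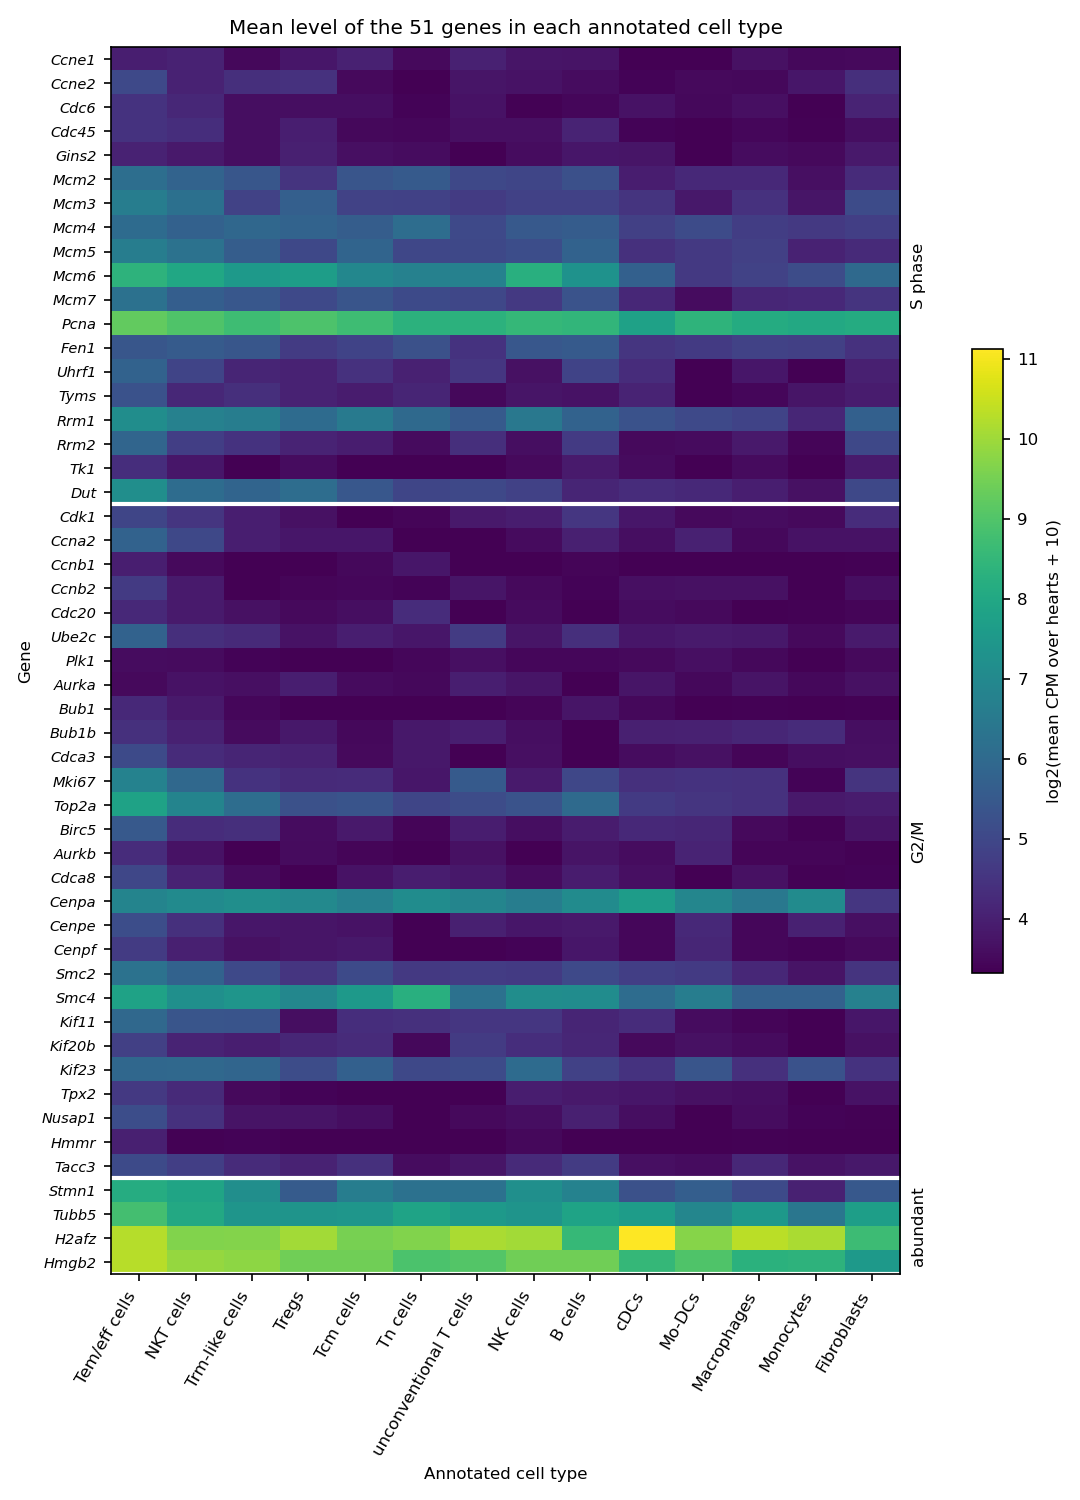
Mean level of each of the 51 genes (rows, grouped as S phase, G2/M and abundant) in each of 14 annotated cell types (columns), as log2 of the mean CPM over hearts with at least 10 cells of the type, plus 10. Tem/eff cells have the highest level for 41 of the 51 genes, while *Pcna*, *Cenpa*, *Smc4*, *H2afz* and *Hmgb2* are bright across most columns.

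Among the chromosome and centromere genes, *Mki67* was at 164, 58.0 and 72.1 CPM in Tem/eff cells of hearts 1, 2 and 3 and at 129, 87.6 and 96.0 CPM in those of hearts 4, 5 and 6 (101 ± 39.0 CPM, SD, n = 6 hearts). In NKT cells it was at 61.3, 0 and 22.0 CPM in hearts 1, 2 and 3 and at 77.2, 52.7 and 103 CPM in hearts 4, 5 and 6 (52.8 ± 37.3 CPM). Tem/eff cells were above NKT cells in 5 of 6 hearts, and the ranges of both types overlapped. *Top2a*, the topoisomerase that untangles DNA before chromosomes separate, ranged from 129 to 275 CPM in Tem/eff cells and from 18.9 to 169 CPM in NKT cells, and Tem/eff cells were higher in 6 of 6 hearts. The highest of the other 12 types was Trm-like cells, at 59.6 CPM. *Birc5* (survivin), a subunit of the complex that corrects chromosome attachment, was at 68.5, 23.4 and 23.7 CPM in Tem/eff cells of hearts 1, 2 and 3 and at 38.1, 17.4 and 38.2 CPM in those of hearts 4, 5 and 6. It was above the next type, Trm-like cells (10.6 CPM), in 6 of 6 hearts. Its partner *Cdca8* was at 21.4 CPM in Tem/eff cells and 6.63 CPM in NKT cells.

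Of the 11 genes for cyclins, kinases and checkpoint proteins, most were highest in Tem/eff cells, while the type that came next varied. *Cdk1*, the kinase that starts mitosis, was at 42.6, 3.26 and 15.1 CPM in Tem/eff cells of hearts 1, 2 and 3 and at 38.4, 13.4 and 12.3 CPM in those of hearts 4, 5 and 6, and B cells came next (13.6 CPM). *Ccna2*, which encodes cyclin A2, averaged 45.2 CPM in Tem/eff cells and 22.2 CPM in NKT cells, and no other type was above 6.29 CPM. *Ube2c*, which tags mitotic cyclins for destruction, averaged 45.0 CPM in Tem/eff cells, and the next type, unconventional T cells, was at 15.6 CPM. Other members were near the limit of detection. *Ccnb1*, cyclin B1 of the mitotic kinase, had 31 UMIs in all cells together and was at 12.3, 0 and 1.04 CPM in Tem/eff cells of hearts 1, 2 and 3 and at 6.28, 6.67 and 8.56 CPM in those of hearts 4, 5 and 6. *Hmmr*, *Plk1*, *Aurka* and *Bub1* had 24, 28, 53 and 54 UMIs in all cells together, and the order of types for *Plk1* and *Aurka*, nominally highest in Mo-DCs and Tregs, rests on those few UMIs.

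Spindle genes also led in Tem/eff cells, with *Kif11*, the motor that pushes spindle poles apart, at 51.9 CPM there and 32.0 CPM in NKT cells, and *Nusap1*, which bundles spindle fibers, at 25.8 and 11.8 CPM. Both were higher in Tem/eff cells than in NKT cells in 6 of 6 hearts. *Kif23*, a motor of cytokinesis, was an exception. It averaged 56.4 CPM in NK cells, 52.4 CPM in NKT cells and 51.5 CPM in Tem/eff cells, with standard deviations of 20.47, 12.5 and 19.6 CPM, and NK cells were above NKT cells in 5 of 6 hearts.

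The S-phase genes were less restricted than the G2/M genes. The ratio of the level in Tem/eff cells to the median of the 12 types other than Tem/eff and NKT had a median of 4.01 over the 19 S-phase genes and 7.64 over the 28 G2/M genes, of which *Ccnb1* and *Hmmr* had no ratio because that median was 0. Over 12465 genes with a ratio the median was 1.14. *Mcm5*, a subunit of the helicase, was at 130, 33.0 and 81.3 CPM in Tem/eff cells of hearts 1, 2 and 3 and at 121, 76.6 and 92.5 CPM in those of hearts 4, 5 and 6, above NKT cells (66.7 ± 36.5 CPM) in 6 of 6 hearts. *Rrm2*, the subunit of ribonucleotide reductase that limits nucleotide supply, was at 49.5, 26.6 and 58.5 CPM in Tem/eff cells of hearts 1, 2 and 3 and at 74.0, 22.7 and 60.03 CPM in those of hearts 4, 5 and 6. *Tyms*, which makes thymidylate, was at 29.0 ± 5.52 CPM in Tem/eff cells (range 20.9 to 37.1 CPM over 6 hearts), and the next type, Trm-like cells, was at 10.8 CPM. *Dut*, which clears dUTP, averaged 135 CPM in Tem/eff cells and 59.2 CPM in Tregs.

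Some replication genes were present far beyond the cells with mitotic transcripts. *Pcna* was detected in 65.7% of cells and ranged from 210 CPM in cDCs to 600 CPM in Tem/eff cells, where the hearts had 555, 634, 573, 727, 396 and 716 CPM in order. *Mcm6* averaged 320 ± 43.2 CPM in Tem/eff cells and 293 CPM in NK cells, a type with 4.77 CPM of *Mki67*, and Tem/eff cells were higher in 4 of 6 hearts. In Mo-DCs *Mcm6* was at 14.6 CPM. The plot of 4 genes by heart sets these patterns side by side.

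**Figure D2:**
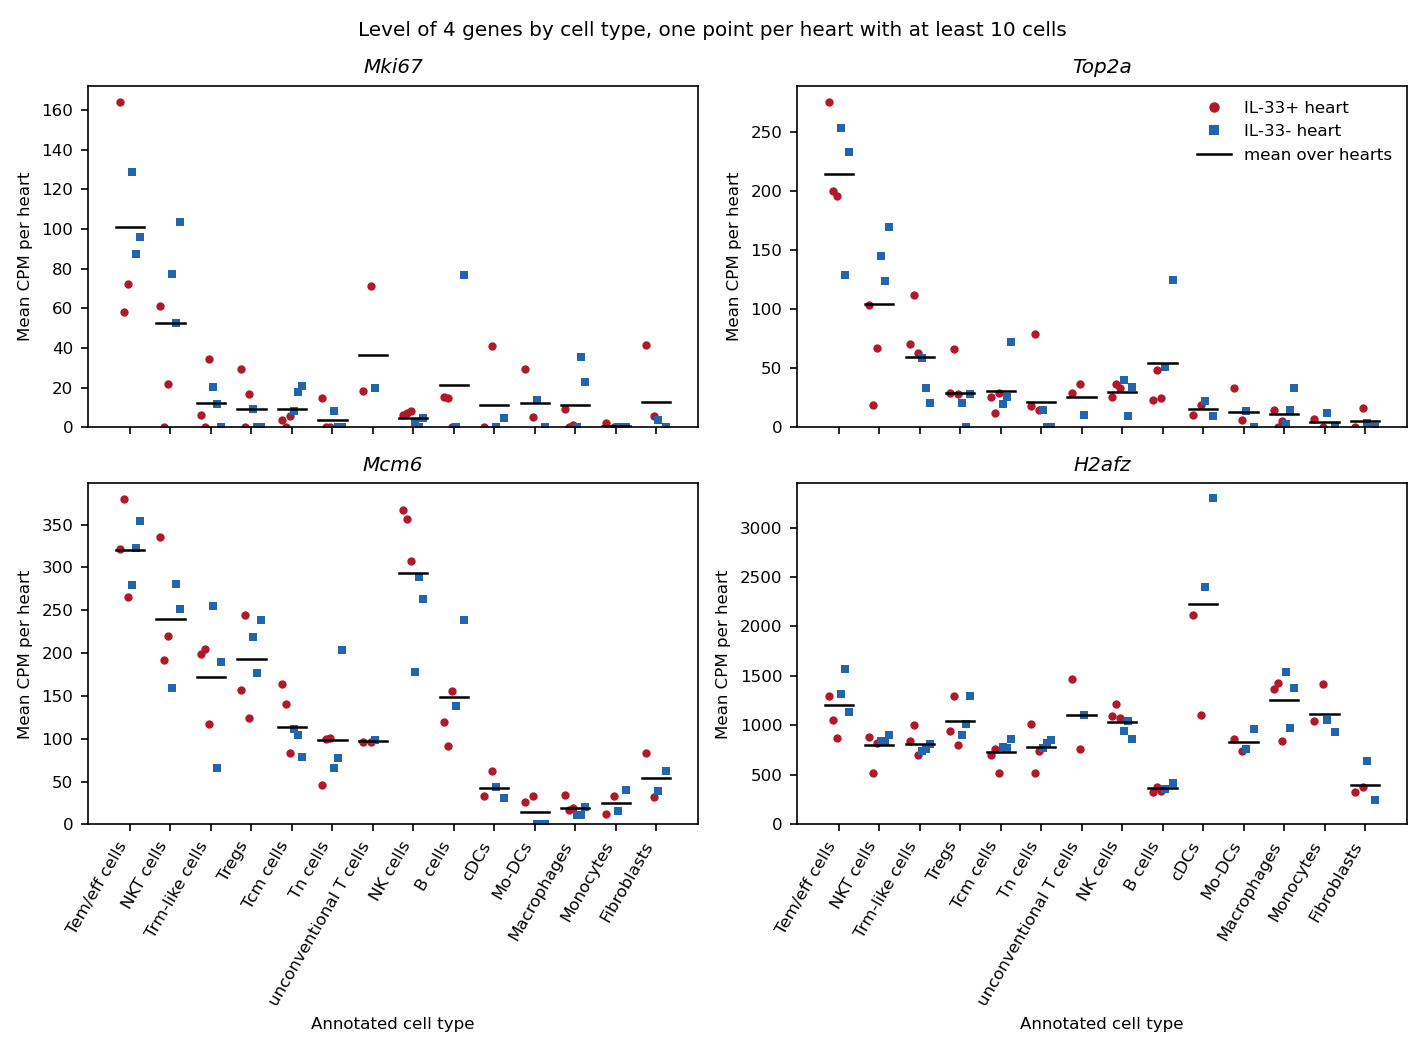
Mean CPM of *Mki67*, *Top2a*, *Mcm6* and *H2afz* (one panel each, linear axis) in each annotated cell type, one point per heart with at least 10 cells, red circles for IL-33+ and blue squares for IL-33- hearts, with a line at the mean over hearts. *Mki67* and *Top2a* lead in Tem/eff and NKT cells, *Mcm6* is about as high in NK cells (293 CPM) as in Tem/eff cells (320 CPM), and *H2afz* is highest in cDCs (2228 CPM).

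Members whose highest type lay elsewhere were few. *H2afz*, which encodes a histone variant also used in resting chromatin, was highest in cDCs (2228 CPM over 4 hearts with at least 10 cells), followed by macrophages (1256 CPM), and cDCs were above macrophages in 4 of 4 hearts. *Cenpa*, the histone that marks centromeres, was highest in cDCs too, at 189 ± 5.18 CPM over 4 hearts, and was at 106 CPM in Tem/eff cells. *Smc4*, a subunit of condensin, was highest in naive T (Tn) cells, at 377, 363 and 364 CPM in hearts 1, 2 and 3 and 201, 242 and 213 CPM in hearts 4, 5 and 6, while its partner *Smc2* was highest in Tem/eff cells (67.0 CPM). *Mcm4* averaged 59.4 CPM in Tn and 55.6 CPM in Tem/eff cells, with Tn cells higher in 3 of 6 hearts, and *Cdc20* at 9.73 and 8.76 CPM, with Tn cells higher in 2 of 6 hearts. *Ccne1* and *Fen1* were nominally highest in NKT cells, at 6.75 and 36.9 CPM. *Ccne1* was higher in NKT cells than in the next type, Tcm cells, in 3 of 6 hearts, and *Fen1* than in B cells in 2 of 5. Across 72 means of a type in a heart, *Cenpa* had a correlation of 0.11 with the mean of the other 27 G2/M genes and *Aurka* of -0.06, against 0.85 for *Ccna2* and 0.82 for *Top2a*. The points share hearts and a library, and the values are given as a description.

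Of the 4 abundant genes, *Stmn1*, which destabilizes microtubules, was at 376, 169 and 190 CPM in Tem/eff cells of hearts 1, 2 and 3 and at 408, 178 and 313 CPM in those of hearts 4, 5 and 6. *Tubb5*, a β-tubulin, ranged from 347 to 566 CPM there and was above NKT cells (253 CPM) in 6 of 6 hearts. *Hmgb2*, a chromatin protein, ranged from 914 to 1652 CPM in Tem/eff cells and from 569 to 1184 CPM in NKT cells. All 4 were found in every type.

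Counting genes per cell gave the same order of types. Each cell was thinned to 1500 UMIs, the fewest in any cell, so that depth does not set the count, and cells with a UMI of at least 5 of the 47 S and G2/M genes were counted. They were 163 of 4441 cells (3.67%). They made up 19.3% of Tem/eff cells (63 of 327, exact 95% binomial interval 15.1% to 24.0%) and 13.5% of NKT cells (47 of 347, 10.1% to 17.6%). In the other 12 types the share was at most 3.31%, in Trm-like cells, and it was 0 of 204 Mo-DCs and 0 of 154 monocytes, with exact 95% binomial upper limits of 1.79% and 2.37%. By the count of 3 cells that a 0 allows, the limits are 1.47% and 1.95%. Without thinning, when depth differs between types, cells with 8 or more of the 47 genes were 29.4% of Tem/eff cells, 20.7% of NKT cells and 14.5% of unconventional T cells, whose cells had a median of 10175 UMIs against 5694 in Tem/eff cells. Intervals and limits of this kind cover counting error only.

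**Figure D3:**
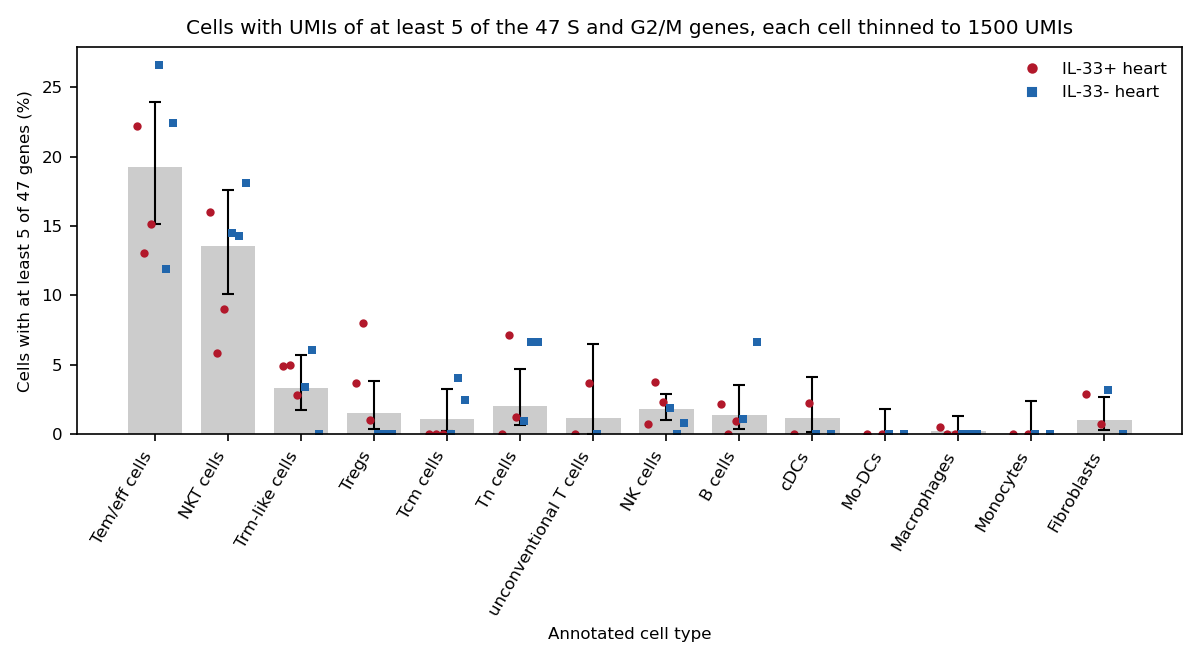
Share of cells (percent) in each annotated type with UMIs of at least 5 of the 47 S and G2/M genes after each cell was thinned to 1500 UMIs. Bars give all cells of the type with exact 95% binomial intervals, and points give hearts with at least 10 cells (red circles IL-33+, blue squares IL-33-). Tem/eff (19.3%) and NKT cells (13.5%) stand above the other types, none of which is over 3.31%.

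Within Tem/eff and NKT cells the transcripts of both phases were gathered in a minority of cells. In Tem/eff cells 96 of 327 cells had UMIs of 8 or more of the 47 genes without thinning, with a median of 9 S-phase and 7 G2/M genes, and in NKT cells 72 of 347 did, with medians of 9 and 5. These cells were deeper than the others of their type (median 8196.5 against 5141 UMIs in Tem/eff cells, 7795 against 5397 in NKT cells). Up to 40 of the 47 genes were seen in 1 Tem/eff cell. After thinning, 60 of 327 Tem/eff cells had at least 2 S-phase and at least 2 G2/M genes, 80 had at least 2 S-phase genes only, 22 had at least 2 G2/M genes only and 165 had neither. In Tem/eff cells with a *Mki67* UMI (62 of 327), *Top2a* was found in 58.1% after thinning, against 7.92% of those without. *Nusap1* was found in 24.2% against 0 of 265, *Ccna2* in 27.4% against 0.755%, and *Birc5* in 19.4% against 0.377%. The widely expressed members separated these cells less, with *Pcna* in 66.1% against 47.9% and *Mcm6* in 43.5% against 27.9%. Marker genes in the cells with 8 or more genes were compared with the rest of the type without thinning, although these cells were deeper. *Cd3e* was detected in 95.8% of the Tem/eff cells with 8 or more genes and in 90.5% of the rest, and *Ccr7* in 44.8% and 62.3%. *Gzma* was detected in 80.6% of the NKT cells with 8 or more genes and 83.3% of the rest. *Klrb1c* was detected in 36.1% and 43.3% of them and *Ncr1* in 18.1% and 15.6%. *Cd8a*, chosen after its values were seen, was detected in 34.4% of those Tem/eff cells and 9.52% of the rest, and *Cd4* in 57.3% and 70.6%. The study lists this type among CD4+ T helper cells. No further doublets were removed here, and 22 of the 96 Tem/eff cells and 13 of the 72 NKT cells had over 10000 UMIs. Cells with at least 2 markers of T cells and at least 2 of macrophages were 4.17% of the 96 and 7.36% of the other Tem/eff cells.

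The genes outside the list whose levels most resembled the members were in part cell cycle genes. Over 72 means of a type in a heart with at least 10 cells, and among 12463 genes, the highest correlation with the mean of the 28 G2/M genes was that of *Pclaf*, which binds PCNA (r = 0.83), followed by the histone gene *Hist1h3c* (0.82), *Clspn*, a mediator of the replication checkpoint (0.75), *Hist1h2ap* (0.75), *Nuf2*, of the kinetochore (0.75), *Cdca5* (0.75), *Asf1b* (0.74), *Esco2* (0.74), *E2f7* (0.73) and *Kif4* (0.73). *Pclaf* was at 142 CPM in Tem/eff cells and 62.4 CPM in NKT cells. It also led for the 19 S-phase genes (0.81), followed by *H2afv* (0.80), *Celf2* (0.75), *Cbx3* (0.75), *Dtl* (0.75), *Ptprcap* (0.74), *Smarca5* (0.73), *Serbp1* (0.73), *Sesn3* (0.73) and *Ndfip1* (0.72), most of which are not known as cell cycle genes. The means of a type in a heart share cells, library and depth, and these values describe likeness only.

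The comparison of IL-33+ with IL-33- hearts asks whether grafts able to make IL-33 had other levels of these genes. For each heart and type the mean CPM of its cells was taken, and log2 of this mean plus 10 CPM was compared with limma, with 3 hearts per group and differences given as IL-33+ minus IL-33-. Each heart was digested and labelled with its own hashtag before pooling, and a p measures the spread between these 6 hearts. Of all pairs of a member and a type, 353 had at least 10 UMIs and a UMI in at least 3 hearts and were tested, and *Plk1* and *Aurka* were tested in none. A gene with most of its UMIs in a single group could meet this filter through that group alone. Its p and lack of overlap then give no support of their own. None of the 353 passed an adjusted p of 0.05 (Benjamini-Hochberg over all genes of the type), and the smallest was 0.128. Over all genes and types 0.00884% passed. At an unadjusted p of 0.05 or less were 27 of 353 (7.65%), 13 higher and 14 lower in IL-33+ hearts, against 4.71% of all 113175 tests. Only the differences below therefore have an unadjusted p, and none of them is a called change. In a mean over the cells of a type, fewer dividing cells and less RNA per dividing cell cannot be told apart.

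The largest group of differences was in NKT cells. Of the 47 members tested there, 42 were lower and 5 higher in IL-33+ hearts, and the median difference was -0.44 on the log2 scale, against -0.04 over 9296 genes. At an unadjusted p of 0.05 or less were 10 of 47 (21.3%), all lower in IL-33+ hearts, against 4.88% of all genes in either direction and 3.04% lower. They were *Top2a*, *Pcna*, *Ccna2*, *Rrm1*, *Mki67*, *Cenpf*, *Smc4*, *Stmn1*, *Cdc6* and *Hmgb2*, of which 3 are S-phase genes, 5 are G2/M genes and 2 are abundant genes.

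*Top2a* was at 103, 18.9 and 67.2 CPM in NKT cells of hearts 1, 2 and 3 and at 145, 124 and 169 CPM in those of hearts 4, 5 and 6. The groups did not overlap, and the log2 difference was -1.30 (SE 0.34, limma unadjusted p = 0.000909, adjusted p = 0.851). *Pcna* was at 476, 340 and 390 CPM in the IL-33+ hearts and at 551, 596 and 619 CPM in the IL-33- hearts, again with no overlap (-0.55, SE 0.15, limma adjusted p = 0.851). *Ccna2* was at 17.6, 0 and 7.25 CPM against 41.5, 26.5 and 40.6 CPM (-1.44, SE 0.42). Among these, heart 2 was the lowest each time.

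*Cenpf*, a protein of the mitotic kinetochore, was at 0, 0 and 0.975 CPM in NKT cells of hearts 1, 2 and 3 and at 10.9, 6.18 and 17.9 CPM in those of hearts 4, 5 and 6, from 1 and 19 UMIs per group. *Cenpf* met the filter for a test through the IL-33- hearts alone. *Cdc6*, which loads the helicase, was at 1.89, 0 and 3.69 CPM against 21.8, 4.54 and 17.1 CPM. It had no UMI in heart 2, nor had *Ccna2* or *Mki67*. These genes therefore met the filter of 3 hearts only with the IL-33- hearts. *Smc4* was at 125, 49.2 and 146 CPM against 192, 153 and 161 CPM. For these 3 genes, too, the groups did not overlap. For *Mki67* (27.8 ± 31.1 against 77.8 ± 25.4 CPM, SD, n = 3 hearts each), *Rrm1*, the large subunit of ribonucleotide reductase (59.6 ± 46.7 against 134 ± 35.01 CPM), *Stmn1* (179 ± 95.9 against 270 ± 65.2 CPM) and *Hmgb2* (818 ± 238.5 against 1047 ± 182 CPM) they did. Their log2 differences were -1.59, -1.29, -0.67 and -0.38.

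Heart 2 had 17 NKT cells and no UMI of *Mki67* or *Ccna2* in them, against 28 to 100 NKT cells in the other hearts. Without heart 2, 35 of 46 members tested were lower, 8 had an unadjusted p of 0.05 or less, all lower, and the median difference was -0.14. Without heart 1 there were 18 such members and without heart 6 there were 6, all lower. The log2 difference of *Mki67* was -0.84 without heart 2 and -2.25 without heart 1, and that of *Top2a* was -0.73 and -1.72. The median depth of NKT cells was 5819, 5589 and 6008 UMIs in hearts 1, 2 and 3 and 5742, 5166.5 and 5635 UMIs in hearts 4, 5 and 6. Of 12 marker lists, that of fibroblasts (5 genes) was the only list without overlap between the groups in NKT cells, at 226 to 433 CPM in IL-33+ and 173 to 211 CPM in IL-33- hearts, and its part in the result was not tested. The NK cell list was at 5942 to 7081 CPM and 3187 to 6121 CPM. After thinning, a *Mki67* UMI was found in 6.00%, 0% and 1.00% of NKT cells of hearts 1, 2 and 3 and in 7.25%, 7.14% and 12.05% of those of hearts 4, 5 and 6, from 21 cells in all. Without thinning the shares were 12%, 0% and 6.00% against 14.5%, 7.14% and 15.7%, and the groups overlapped. For background, 0.823% of Tn cells, most of which are at rest, had a *Mki67* UMI after thinning. The median depth before thinning was 2764 UMIs in Tn cells and 5742 in NKT cells.

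Tem/eff cells, where these genes were highest, had differences in both directions. Of 49 members tested, 29 were lower and 20 higher in IL-33+ hearts, with a median of -0.06 against -0.02 over 9392 genes. *H2afz* alone had an unadjusted p of 0.05 or less (1 of 49, against 4.41% of all genes), with a log2 difference of -0.32 (SE 0.14) and overlapping groups. *Mki67* differed by -0.19 (SE 0.28, limma unadjusted p = 0.516), and the difference was 0.08 without heart 2. *Top2a* averaged 224 and 205 CPM. The difference between NKT and Tem/eff cells was compared directly within hearts for 5 members, chosen for their small p in NKT cells. On the log2 scale, *Top2a* in NKT cells was below that in Tem/eff cells by means of -1.87 in IL-33+ hearts and -0.42 in IL-33- hearts, and *Mki67* by -1.80 and -0.40. For *Top2a*, *Mki67*, *Ccna2* and *Rrm1* the groups did not overlap in this measure, and for *Pcna* they did. The genes were chosen for the difference in NKT cells that enters this measure, so these values are a description with no test.

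**Figure D4:**
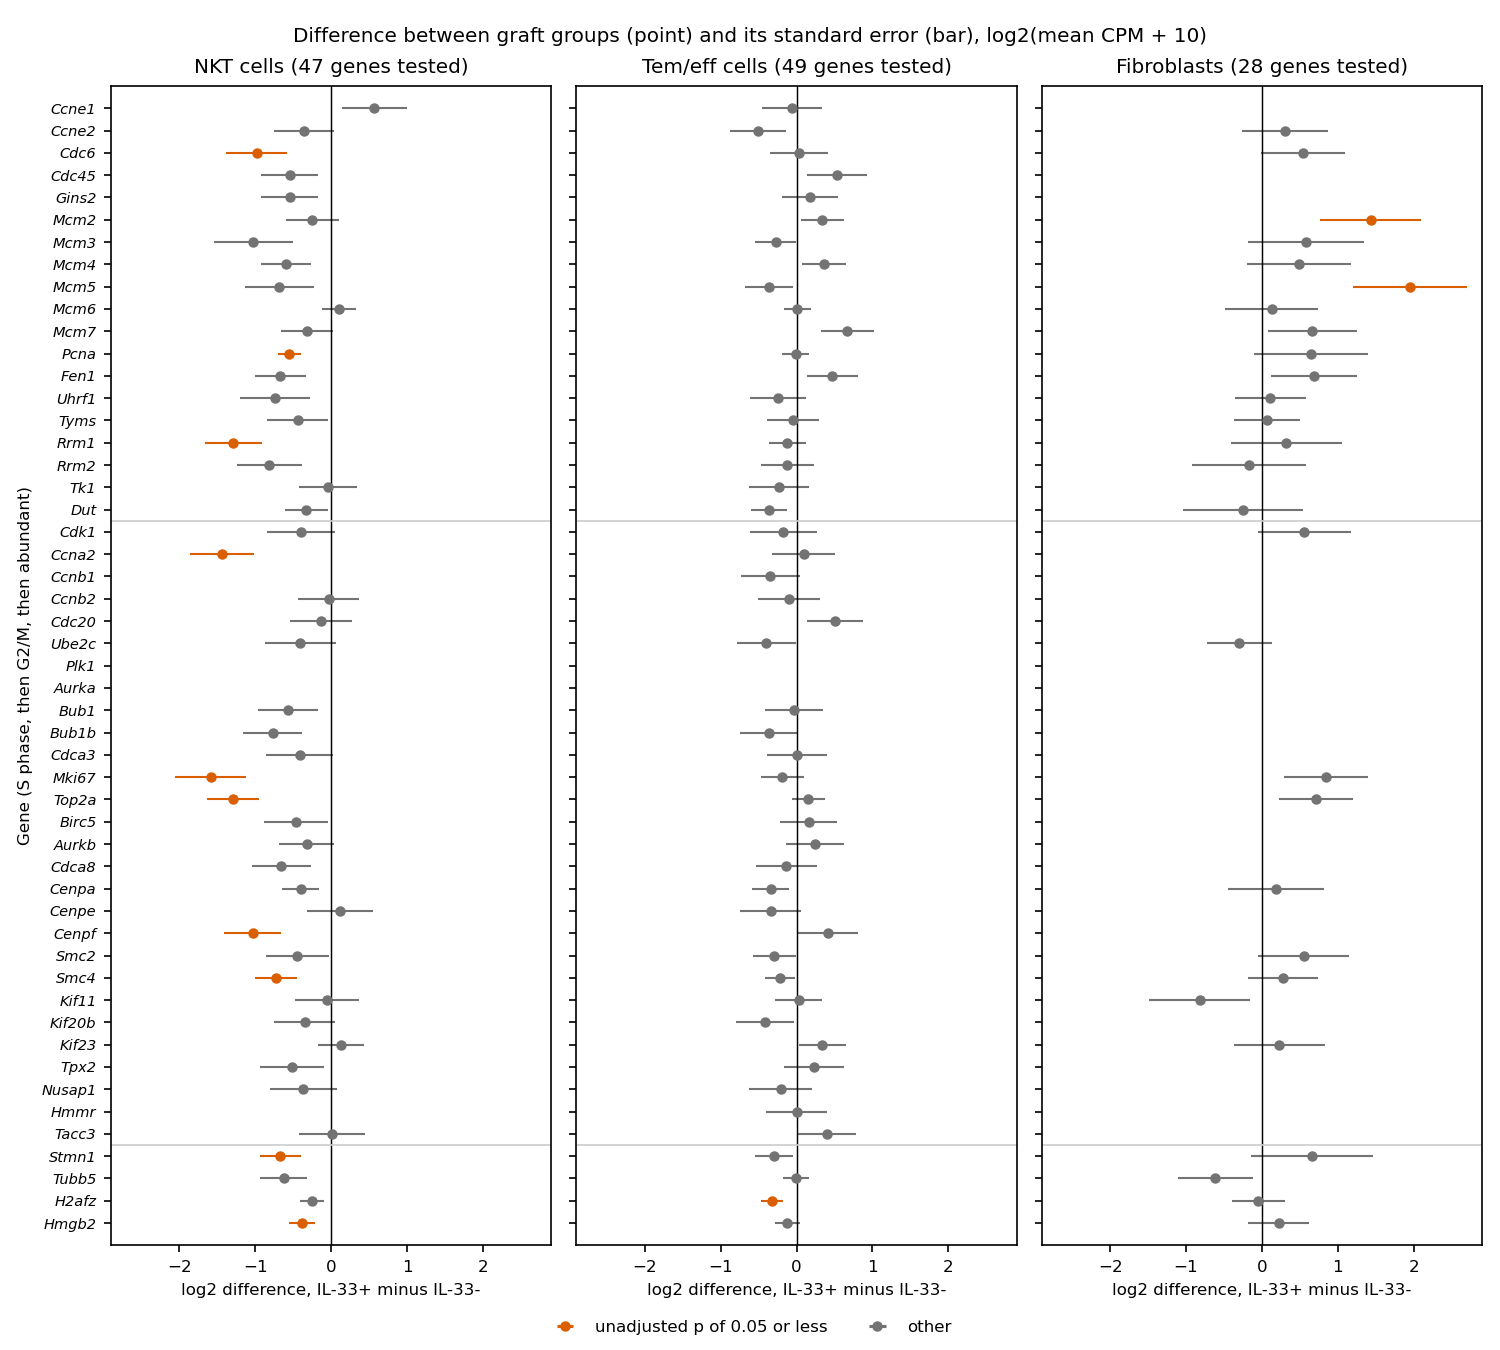
Difference of each member between IL-33+ and IL-33- hearts (points, log2 of mean CPM + 10) with its standard error from limma (bars) in NKT cells, Tem/eff cells and fibroblasts, for the 47, 49 and 28 members tested. Members with an unadjusted p of 0.05 or less are orange. In NKT cells 42 of 47 points lie below 0, in Tem/eff cells 29 of 49, and in fibroblasts 6 of 28.

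In cDCs the difference with the smallest adjusted p of the whole list was found. *H2afz* was at 2112, 891 and 1109 CPM in cDCs of hearts 1, 2 and 3 and at 2394, 3160 and 3295 CPM in those of hearts 4, 5 and 6. The groups did not overlap, and the log2 difference was -1.19 (SE 0.24, limma adjusted p = 0.128). Hearts 2 and 5 had 6 and 9 cDCs, and without hearts under 10 cells the difference was -0.87. It passed an adjusted p of 0.05 without heart 1, where the difference was -1.55, and when no filter on low counts was used. In the same cells the naive T cell list, to which *Ccr7* contributes most, was at 567 to 780 CPM in IL-33+ and 946 to 2287 CPM in IL-33- hearts. *Ccr7*, a homing receptor that migrating dendritic cells also make, was at 586, 514 and 273 CPM against 1164, 886 and 2144 CPM. The lists of T cells (32.2 to 81.7 against 11.5 to 29.1 CPM) and B cells (250.1 to 768 against 64.6 to 202 CPM) did not overlap either, and the part of these cells in the result was not tested. *Stmn1* was the other of 23 members tested with an unadjusted p of 0.05 or less in cDCs (2 of 23, against 6.79% of all genes), at 8.41, 132 and 89.9 CPM against 4.18, 0 and 10.5 CPM, with overlap between the groups.

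Fibroblasts are of interest because their growth follows injury of the graft. Of 28 members tested, 22 were higher and 6 lower in IL-33+ hearts, with a median of 0.31 against 0.07 over 10691 genes. The helicase genes *Mcm5* and *Mcm2* had an unadjusted p of 0.05 or less (2 of 28, against 3.16% of all genes). *Mcm5* was at 24.9, 105 and 8.32 CPM in hearts 1, 2 and 3 and at 2.66, 0 and 0 CPM in hearts 4, 5 and 6 (log2 difference 1.95, SE 0.75, limma adjusted p = 0.998). These rest on 4, 4 and 13 UMIs against 1, 0 and 0 UMIs, so that *Mcm5* met the filter for a test through the IL-33+ hearts alone. *Mcm2* was at 29.3, 39.0 and 4.78 CPM against 0, 0 and 4.51 CPM, and it too met the filter of 3 hearts only with the IL-33+ hearts. Hearts 2 and 5 had 6 and 4 fibroblasts. Without heart 2 the log2 difference of *Mcm5* was 1.22 and that of *Mcm2* 1.09. With limma-voom neither had an unadjusted p of 0.05 or less (*Mcm5* 1.07, *Mcm2* 0.48), and over all alternatives *Mcm2* lost it in 10 and kept it in 2. *Mki67* was found in 10 of 375 fibroblasts, which were 4, 0 and 5 cells of hearts 1, 2 and 3 and 1, 0 and 0 cells of hearts 4, 5 and 6. Only 1 of the 375 had 2 or more *Mki67* UMIs, so that the values that follow rest on few cells. The log2 difference of *Mki67* by limma was 0.85 (SE 0.56, unadjusted p = 0.138). Without heart 2 it was 1.35 by limma (unadjusted p = 0.0356).

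In Tregs, 18 members were tested and 2 had an unadjusted p of 0.05 or less, both abundant genes and both higher in IL-33+ hearts (2 of 18, against 5.1% of all genes). *Stmn1* was at 93.2, 58.6 and 40.5 CPM in hearts 1, 2 and 3 and at 0, 10.8 and 21.2 CPM in hearts 4, 5 and 6, with no overlap (log2 difference 1.93, SE 0.60, limma adjusted p = 0.707), from 20 and 3 UMIs per group. *Stmn1* met the filter for a test through the IL-33+ hearts alone. *Hmgb2* was at 840, 927 and 618 CPM against 468, 564 and 661 CPM, with overlap. *Mki67* had a UMI in 7 of 263 Tregs, too few for a test, and 4 Tregs (1.52%) had at least 5 of the 47 genes after thinning, all in IL-33+ hearts. At least 3 of the 47 genes were found in 52 Tregs after thinning. The means were 22.7% in IL-33+ and 22.9% in IL-33- hearts, with overlap. The NK cell list, to which *Gzma* contributes most, was the only list without overlap in Tregs, at 169 to 599 CPM in IL-33+ and 91.4 to 128 CPM in IL-33- hearts. *Gzma* was at 117, 126 and 551 CPM in hearts 1, 2 and 3 and at 76.1, 67.6 and 69.8 CPM in hearts 4, 5 and 6. For *Ncr1*, *Klrb1c*, *Klre1* and *Eomes* the groups overlapped, and the part of this list was not tested.

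In NK cells, 3 of 28 members tested had an unadjusted p of 0.05 or less, against 5.82% of all genes. *Mcm6* was at 367, 356 and 307 CPM in hearts 1, 2 and 3 and at 178, 289 and 263 CPM in hearts 4, 5 and 6 (log2 difference 0.50, SE 0.18, limma adjusted p = 0.762). *H2afz* was higher as well (1126 ± 75.1 against 950 ± 88.3 CPM) and *Cenpa* lower (69.98 ± 13.74 against 107 ± 14.999 CPM), and the groups did not overlap for any of the 3. *Mki67* differed by 0.48 (limma unadjusted p = 0.192). The monocyte, cDC and naive T cell lists also differed without overlap in NK cells, the last at 422 to 460 CPM in IL-33+ and 243 to 315 CPM in IL-33- hearts.

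In Trm-like cells, 2 of 28 members had an unadjusted p of 0.05 or less, against 5.05% of all genes, both higher in IL-33+ hearts. *Top2a* was at 70.3, 112 and 63.0 CPM in hearts 1, 2 and 3 and at 58.5, 33.6 and 20.8 CPM in hearts 4, 5 and 6, with no overlap, and *Tubb5* averaged 197 and 121 CPM, with overlap. The NK cell list was at 1246 to 2763 CPM and 446 to 1012 CPM in these cells, and its part was not tested. The remaining differences at this level were *Smc4* in Tn cells (higher, 0.73), *Stmn1* in B cells (lower, -1.43), *Dut* in macrophages (higher, 0.81) and *Tubb5* and *Uhrf1* in unconventional T cells (higher, 1.13 and 1.66). These were 1 of 19 members tested in Tn cells (4.92% of all genes), 1 of 20 in B cells (4.18%), 1 of 27 in macrophages (4.04%) and 2 of 23 in unconventional T cells (4.54%). Under the alternatives run, an unadjusted p of 0.05 or less was kept in 5 and lost in 8 for *Dut*, kept in 8 and lost in 6 for *Tubb5*, and kept in 2 and lost in 6 for *Uhrf1*. Marker lists without overlap were those of T cells in Tn cells (1635 to 1699.9 against 1289 to 1546 CPM), of cDCs in B cells (18.4 to 53.3 against 0 to 11.97 CPM), and of T cells, Tregs and fibroblasts in macrophages (the last 235 to 329 against 343 to 560.3 CPM), and their part was not tested. *Uhrf1*, which keeps DNA methylation through replication, had 1 UMI in the IL-33- hearts, so that it did not meet the filter through them. In Tn cells the 3 IL-33+ hearts lay between 363 and 377 CPM of *Smc4* and the 3 IL-33- hearts between 201 and 242 CPM. *Mki67* in macrophages differed by -0.94 (limma unadjusted p = 0.0828). In Tcm cells it was at 3.86, 0 and 5.64 CPM in hearts 1, 2 and 3 and at 7.97, 17.5 and 20.8 CPM in hearts 4, 5 and 6, from 15 UMIs, without overlap (limma unadjusted p = 0.0772). In Tcm cells, monocytes and Mo-DCs no member had an unadjusted p of 0.05 or less, of 24, 10 and 9 tested.

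**Figure D5:**
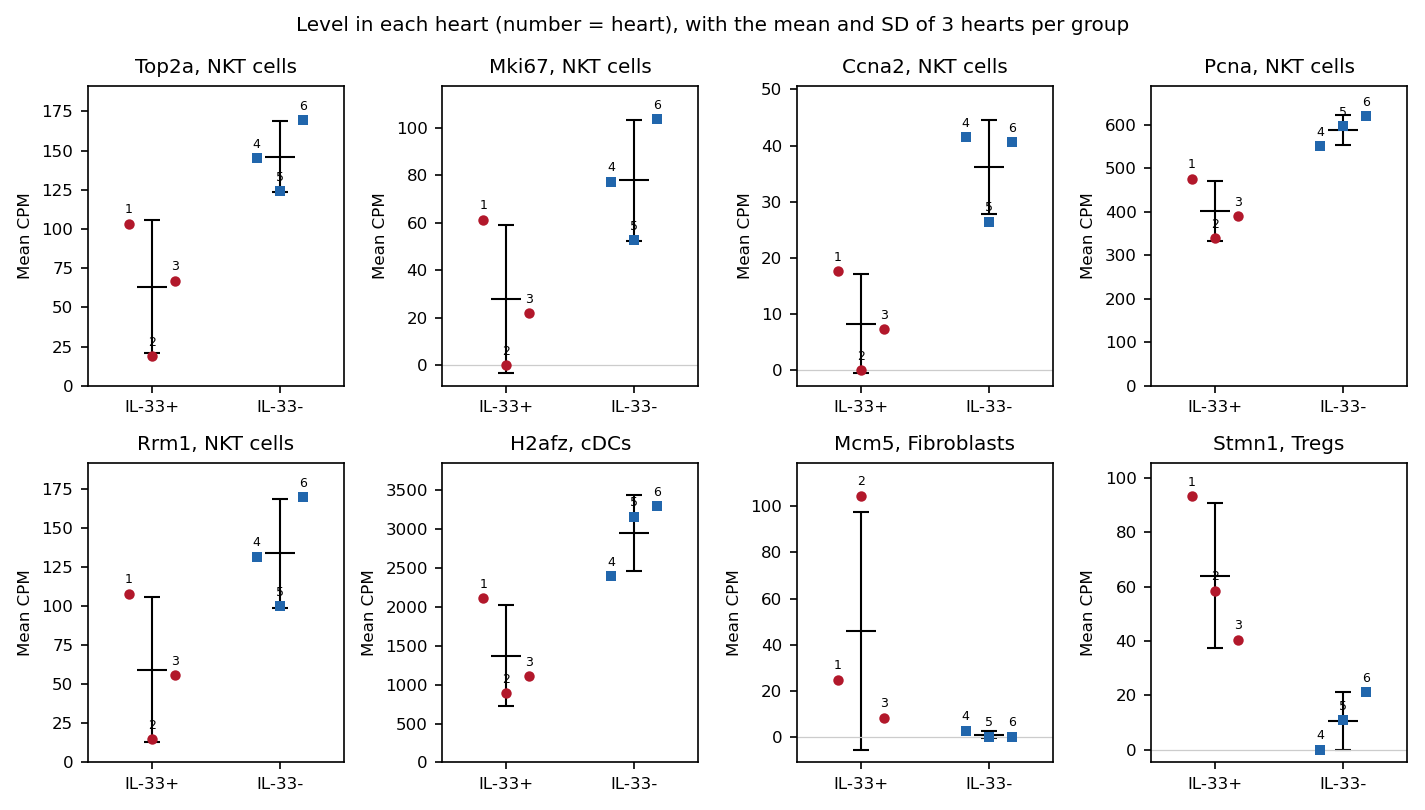
Mean CPM in each of the 6 hearts (points, numbered by heart, red circles IL-33+ and blue squares IL-33-) with the mean and SD of the 3 hearts per group (black) for *Top2a*, *Mki67*, *Ccna2*, *Pcna* and *Rrm1* in NKT cells, *H2afz* in cDCs, *Mcm5* in fibroblasts and *Stmn1* in Tregs, on linear axes. The groups overlap for *Mki67* and *Rrm1* and do not overlap for the other 6.

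Over all cells of a heart, a *Mki67* UMI after thinning was found in 2.66%, 1.30% and 1.56% of cells of hearts 1, 2 and 3 and in 1.79%, 2.46% and 3.40% of those of hearts 4, 5 and 6. The means were 1.84% and 2.55%, and the difference of -0.71 percentage points was within the spread between hearts (two-sided exact permutation test, p = 0.3). Such a share moves with the types present as well as with division in each type, and when 8 types with at least 10 cells in every heart were weighted equally the difference was -0.45 points (p = 0.7, exact permutation test).

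Other genes of the cell cycle, from a list of 123 chosen for their roles of which 122 were in the table, were tested in the same fits. Of 805 tests, 45 had an unadjusted p of 0.05 or less (34 higher and 11 lower in IL-33+ hearts), where the share over all genes and types was 4.71%, and none passed an adjusted p of 0.05. CDK inhibitors and antiproliferative genes, which restrain the cycle, made up 16 of the 34 higher and 2 of the 11 lower. Cyclin and CDK regulators had 7 higher and 3 lower, and mitosis genes 5 and 1. Replication and repair genes had 3 higher and 4 lower, and transcription factors of the cycle 3 and 1. In NKT cells 76 of 100 were lower and 3 had an unadjusted p of 0.05 or less, all lower, against 3.04% of all genes in that direction. Among them, *Ncapd2*, a subunit of condensin, was at 30.8, 0 and 8.21 CPM in hearts 1, 2 and 3 and at 42.0, 61.9 and 47.6 CPM in hearts 4, 5 and 6 (-1.62, SE 0.43), and *E2f2*, a transcription factor of the cycle, differed by -1.03 (SE 0.39). The groups did not overlap for either gene. Neither had a UMI in NKT cells of heart 2, so both met the filter of 3 hearts only with the IL-33- hearts. Their p and lack of overlap give no support of their own.

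By type, 3 of 43 of these other genes had an unadjusted p of 0.05 or less in Tregs, against 5.1% of all genes. The counts were 3 of 53 in Trm-like cells (5.05%), 5 of 61 in macrophages (4.04%) and 5 of 115 in Tem/eff cells (4.41%). They were 5 of 71 in NK cells (5.82%), 2 of 53 in Tcm cells (4.87%) and 6 of 65 in fibroblasts (3.16%). In B cells they were 4 of 44 (4.18%). Unconventional T cells also had 4 of 44 (4.54%), 3 of them lower in IL-33+ hearts. The remaining counts were 2 of 49 in cDCs (6.79%), 1 of 39 in Tn cells (4.92%), 1 of 41 in monocytes (4.87%) and 1 of 27 in Mo-DCs (3.49%). *Btg2*, an antiproliferative gene, had an unadjusted p of 0.05 or less without overlap in Tregs, Trm-like cells, macrophages and Tem/eff cells. In Tregs it was at 252, 635 and 547 CPM in hearts 1, 2 and 3 and at 201, 117 and 207 CPM in hearts 4, 5 and 6 (1.34, SE 0.32, limma adjusted p = 0.323). *Cdkn1b*, the CDK inhibitor p27, was at 279, 273 and 254 CPM in NK cells of IL-33+ hearts and 192, 164 and 231 CPM in those of IL-33- hearts. *Cdk6*, a kinase of G1, was higher without overlap in Tem/eff cells (0.83, SE 0.23) and Tcm cells (1.01, SE 0.38), and *Myc* was at 31.2, 33.1 and 36.3 CPM in Tem/eff cells against 17.8, 7.50 and 8.71 CPM. *Ccnd3*, a cyclin of G1, was higher in Trm-like cells (1.04, SE 0.40). In fibroblasts *Lig1*, the ligase of replication, was at 46.8, 42.8 and 9.31 CPM in hearts 1, 2 and 3 and at 0 in the other 3, from 22 UMIs (limma adjusted p = 0.998). *Lig1* met the filter for a test through the IL-33+ hearts alone. *Rbl1*, of the retinoblastoma family, was lower in fibroblasts (-1.82, SE 0.78). It had no UMI in fibroblasts of heart 2, so it met the filter of 3 hearts only with the IL-33- hearts.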

How the data were processed

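Cells of 6 grafts were pooled in 1 droplet library with hashtags. Per the labels the authors used Cell Ranger on mm10 and Partek 10.0.23.0425, and they deposited log2(CPM + 1) for each gene and cell with each cell's type and heart. The deposited values were returned to UMIs, and 99.94% of low values came out whole to within 0.05. Of 22337 symbols, 21 held other values, none of them a member. CPM was averaged per type and heart, 10 CPM were added, and log2 values went into lmFit and eBayes with trend of limma 3.58.1 (R 4.3.3) for genes with at least 10 UMIs and a UMI in at least 3 hearts. Adjustment was Benjamini-Hochberg over all genes of the type. Thinning drew 1500 UMIs per cell. The series' design text ties hearts to hashtags and grafts, 3 hearts per group. The authors filtered cells by counts and genes to remove likely doublets before deposit. No more were removed here, and an alternative leaves out cells over 10000 UMIs. Other alternatives changed the added CPM, the filter, the scaling or the tool, or left out hearts. Types are the authors' annotation, and levels use hearts with at least 10 cells. In simulated hearts with 200 genes changed 4-fold, the fit was tested before use. The members, lists and tests were chosen with earlier results of these data known. All 51 members could be named. Values per heart were given for 13 widely used members in their highest type and for differences with an unadjusted p of 0.05 or less, chiefly those whose groups do not overlap, and the 10 genes most like each phase were named by Pearson correlation. Other steps used pandas 2.3.3, scipy 1.17.1, numpy 2.4.6 and matplotlib 3.10.9 under Python 3.11.15.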

Additional observations from a re-analysis of the deposited data

Results flagged for a closer look

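For 4 members the difference between IL-33+ and IL-33- hearts went opposite ways in different types, with an unadjusted p of 0.05 or less and no overlap in both. *Top2a* was higher in Trm-like cells (0.99) and lower in NKT cells (-1.30) of IL-33+ hearts, which are 2.28 apart on the log2 scale. *Smc4* was higher in Tn cells (0.73) and lower in NKT cells (-0.73), 1.46 apart. *Stmn1* was higher in Tregs (1.93) and lower in B cells (-1.43), 3.36 apart. *H2afz* was higher in NK cells (0.24) and lower in cDCs (-1.19), 1.43 apart. A two-sided exact permutation test over hearts of each difference between types gave p = 0.1, the smallest that 3 against 3 allow, for each of the 4. The pairs of types were picked for their opposite signs, so this p gives no support of its own.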

How the results depend on the processing

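No paired analysis was possible because the hearts are numbered 1 to 6 and the groups share no number. Over 8 other settings, and with each heart left out in turn, the count of member-by-type tests with an unadjusted p of 0.05 or less stayed within 1.5 times of 27. It was 23 to 36 under other pseudocounts (1 or 50 CPM), summed UMIs, centring, limma-voom, no filter, or without small hearts or cells over 10000 UMIs, and 23 to 38 when a heart was left out. The count passing an adjusted p of 0.05 was 0, and became 1 (*H2afz* in cDCs) with no filter on low counts, and 0 to 1 when a heart was left out. *Mki67* in macrophages differed by -0.35 with 50 CPM added, and by -1.59 to -0.50 when a heart was left out. In fibroblasts it differed by 1.27 without hearts under 10 cells and by 0.77 to 1.35 when a heart was left out. In Tem/eff cells it ranged from -0.59 without heart 1 to 0.084 without heart 2, the only change of sign among the settings that gave a value. *Mki67* in Tregs had no value to compare, since it was not tested. The share of cells with at least 5 of the 47 genes was 3.67% of all cells, and moved to 18.1% with at least 3 genes, to 1.73% with at least 8 and to 18.3% without thinning. The median difference over NKT members was -0.98 with 1 CPM added and -0.18 with 50 CPM. The cause of these shifts was not tested. Few cells and UMIs per heart limit rare types and genes.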
